A study of Mus musculus with 6 samples.

Results

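The regions described here are places on the mouse autosomes where PPARγ was found in macrophages, but where the adipocyte PPARγ, macrophage PU.1 and macrophage C/EBPβ lists have nothing. They were chosen by position from ChIP-seq (chromatin immunoprecipitation followed by sequencing) lists, so their membership rests on measured values: a member overlaps, by at least 1 bp, no region of the final adipocyte PPARγ list, none of the PU.1 list and none of the C/EBPβ list. This left 364 of the 1924 autosomal regions in the final macrophage PPARγ list, 18.9% (95% Wilson interval 17.2 to 20.7), and 21.3% of the 1710 that no final adipocyte region overlapped. The other macrophage-only regions carried PU.1 and C/EBPβ together (797), PU.1 alone (335) or C/EBPβ alone (214). A further 214 regions were shared with the final adipocyte list.

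The macrophages were thioglycollate-elicited peritoneal cells of male C57BL/6 mice, taken 3 days after an injection of 1 ml of 3% thioglycollate and kept for 24 h of adherence. At least 4 animals were pooled in each sequencing run. The adipocytes were differentiated 3T3-L1 cells, an established mouse line. PPARγ and acetylated histone H3 lysine 9 (H3K9Ace) were profiled in macrophages and adipocytes, PU.1 and C/EBPβ in macrophages alone, with 1 library each. No value has replicates, and the tests below run over regions of single libraries: they compare lists of regions, not replicated cell populations, and treat neighbouring regions as independent. Sequencing depth is unknown, since the files hold called regions only. The lists pair no region with a gene, so marker genes of the cell types were not checked and no gene is named.

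PPARγ is a nuclear receptor that binds DNA as a heterodimer with RXR and is activated by fatty acid derivatives and thiazolidinediones. It is required for fat cell differentiation, and in macrophages it acts on lipid handling and inflammatory genes. PU.1, an ETS-family factor, is a lineage factor of myeloid cells and helps to open macrophage enhancers, and C/EBPβ, a leucine-zipper factor, is used by macrophages and adipocytes. H3K9Ace marks active promoters and enhancers, so it gives a readout of chromatin state that the choice of these regions did not use.

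Most of the 364 regions lay outside acetylated chromatin in either cell type. Macrophage H3K9Ace overlapped 134 of them, 36.8% (32.0 to 41.9), where it overlapped 58.7% of all 1924 autosomal macrophage PPARγ regions. Adipocyte H3K9Ace overlapped 102, 28.0% (23.7 to 32.8), against 36.1% of all 1924. Acetylation was present in both cell types at 73 regions, 20.1%, against 29.2% of all 1924. It was present in macrophages alone at 61, 16.8%, against 29.5% of all. In adipocytes alone it was present at 29, 7.97% (5.60 to 11.2), near the 6.86% of all. At 201 regions, 55.2% (50.1 to 60.2), it was present in neither, a state found at 461 of the other 1560 autosomal regions, 29.6% (27.3 to 31.9).

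Between the cell types, the 364 regions were acetylated more often in macrophages, the cells in which PPARγ was found there, by 8.79 percentage points (61 regions against 29, exact McNemar test, 2-sided, p = 9.73e-04). The choice asked for PPARγ in macrophages and for none in the final adipocyte list, so it did not treat the cell types alike. With 1 H3K9Ace library per cell type, the McNemar p compares lists over regions and gives no support for a difference between cell populations. Called H3K9Ace spans 52.3 Mb of the autosomes in macrophages and 98.7 Mb in adipocytes, and the part of this in the contrast was not tested. The excess at the members was smaller away from the factors. When a member also had to lie over 1000 bp from any region of either factor, 219 remained and the excess was 0.913 points (exact McNemar p = 0.875). Absence of overlap with the factors was part of the choice, and a p that misses the threshold does not show that no excess remains.

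Macrophage acetylation was less frequent at the 364 regions than in each of the other macrophage-only classes. It lay at 36.8% of them, against 50.1% of regions with PU.1 alone (168 of 335, 44.8 to 55.5), 56.1% with C/EBPβ alone (120 of 214, 49.4 to 62.6) and 69.5% with both factors (554 of 797, 66.2 to 72.6). The odds ratio was 0.256 against regions with both factors (95% interval 0.195 to 0.335, Fisher's exact test, 2-sided, Benjamini-Hochberg adjusted over 6 tests, p = 8.69e-25). It was 0.456 against C/EBPβ alone (0.319 to 0.653), where the exact test gave an adjusted p of 2.69e-05. Against PU.1 alone it was 0.579 (interval 0.423 to 0.792), with an adjusted exact p of 8.69e-04.

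The 364 regions were also narrower and lower than the rest, with a median width of 220 bp against 344 bp. With regions compared within quartiles of width, the odds ratio of macrophage H3K9Ace was 0.349 against regions with both factors (0.259 to 0.469, exact conditional test, adjusted p = 3.12e-12) and 0.568 against C/EBPβ alone (0.389 to 0.830, adjusted p = 0.00836). Against PU.1 alone it was 0.720 (0.515 to 1.01) and no longer passed, with an adjusted p of 0.0948 by the same exact test. Within quartiles of peak height all 3 odds ratios passed, at 0.278, 0.448 and 0.621 in the same order (exact conditional test, adjusted p = 3.95e-19, 5.82e-05 and 0.00812). In the upper 50% of the list by fold, with 113 members, the odds ratios against PU.1 alone and C/EBPβ alone, 0.599 and 0.571, missed the threshold (exact adjusted p = 0.0995 for each).

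For adipocyte acetylation no difference from another macrophage-only class passed the test. It lay at 28.0% of the 364 regions, against 27.8% with PU.1 alone (23.2 to 32.8), 33.2% with C/EBPβ alone (27.2 to 39.7) and 31.5% with both factors (28.4 to 34.8). The same exact tests gave odds ratios of 1.01 against PU.1 alone (0.718 to 1.43, adjusted p = 1.00), 0.784 against C/EBPβ alone (0.536 to 1.15, adjusted p = 0.292) and 0.847 against both (0.637 to 1.12, adjusted p = 0.292). A p that misses the threshold does not show that the classes are alike, and each interval gives the odds ratios these counts allow. With the longer macrophage list in place of the final one, 11029 regions met the same rule and all 3 adipocyte odds ratios passed, at 0.655, 0.475 and 0.726 in the order given. Regions shared with adipocytes stood apart in this mark, with 82.7% acetylated in adipocytes (77.1 to 87.2) and 72.0% in macrophages (65.6 to 77.6), a comparison that was not tested.

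**Figure D1:**
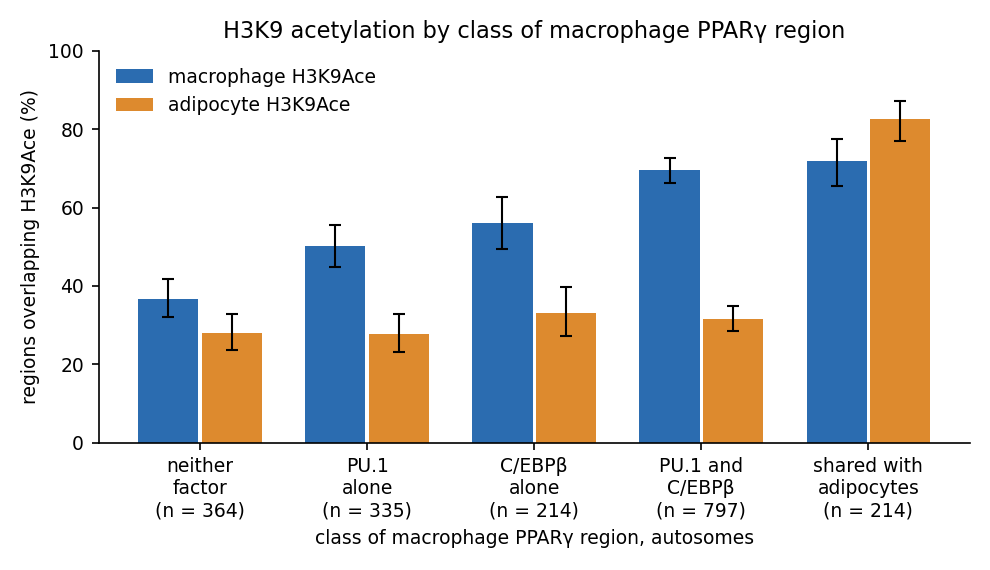
Share of macrophage PPARγ regions that overlap H3K9Ace (y axis, %) in macrophages and in adipocytes, by class of region on the autosomes (x axis); bars are shares and error bars 95% Wilson intervals, which cover counting error only. Macrophage H3K9Ace lies at 36.8% of regions with neither factor and at 50.1 to 69.5% of the other macrophage-only classes, while adipocyte H3K9Ace lies between 27.8 and 33.2% in all 4 of these classes.

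The peak height that the authors deposited for each region, a signal in whole units with no stated scaling for depth, sat near its floor. The lowest value among the 364 regions was 9, the median 10 and the highest 43, against a median of 14 and a highest value of 66 in the other 1560 regions. The floor itself, 9, was the height of 125 members, 34.3% (29.6 to 39.4), and of 155 of the other regions, 9.94% (8.55 to 11.5). The deposited fold, whose control is not given in the files, had a median of 5.72 at the members and 6.41 at the others, with a floor of 5 in each. Heights and folds come from the library that supplied the list, so they are given as a description.

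Among macrophage-only regions, those without PU.1 or C/EBPβ became rarer as height rose. They made up 45.6% of the regions at a height of 9 (125 members), 28.9% at 10 to 11 (128), 15.1% at 12 to 14 (56), 12.2% at 15 to 19 (38) and 5.48% at 20 or more (17). Even at the lowest height, 35.2% of the members had macrophage H3K9Ace (27.4 to 43.9), against 59.1% of the other macrophage-only regions (51.0 to 66.6). At heights of 10 to 11 these shares were 37.5% and 63.2%.

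**Figure D2:**
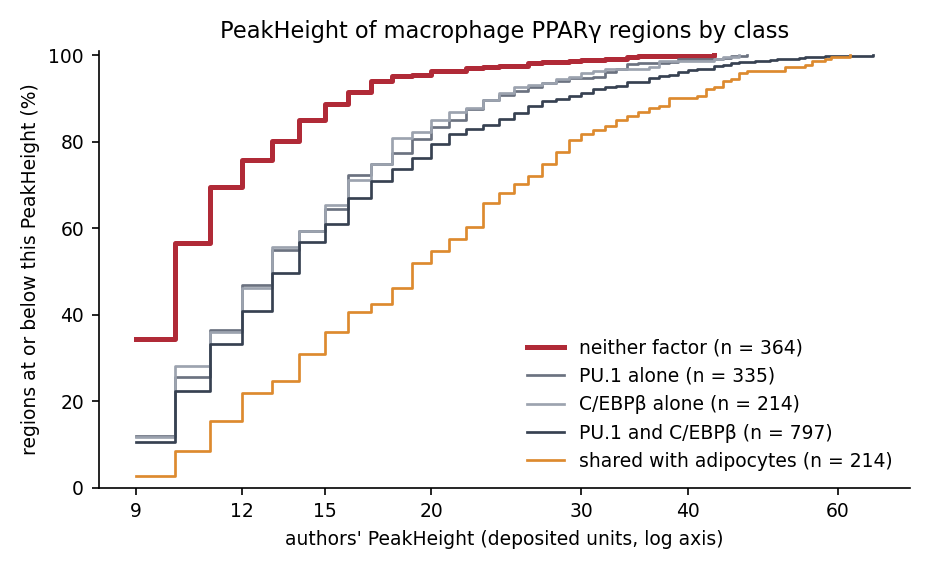
Cumulative share of regions (y axis, %) at or below each deposited PeakHeight (x axis, log scale) for the 5 classes of autosomal macrophage PPARγ regions. The curve of regions with neither factor starts at 34.3% at a height of 9 and reaches its end at 43, to the left of the curves of the other classes, whose medians are 13, 13, 14 and 19.

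The highest members had a different acetylation pattern from the low ones. Of the 17 regions with a height of 20 or more, 11 overlapped adipocyte H3K9Ace and 4 macrophage H3K9Ace, 64.7% (41.3 to 82.7) and 23.5% (9.56 to 47.3). Of these, 7 were acetylated in adipocytes alone and none in macrophages alone. Below a height of 20, macrophage H3K9Ace was the more frequent mark in every height class, with 19 against 13 of 38 at heights of 15 to 19. At 20 or more, 293 other macrophage-only regions had macrophage H3K9Ace in 67.9% of cases (62.4 to 73.0) and adipocyte H3K9Ace in 34.8% (29.6 to 40.4). The height classes were set after the values were seen, the top class holds 17 regions, and no test was made of the pattern. Without 3 neighbouring regions on chromosome 6, described below, 8 of 14 had adipocyte and 4 of 14 macrophage H3K9Ace.

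**Figure D3:**
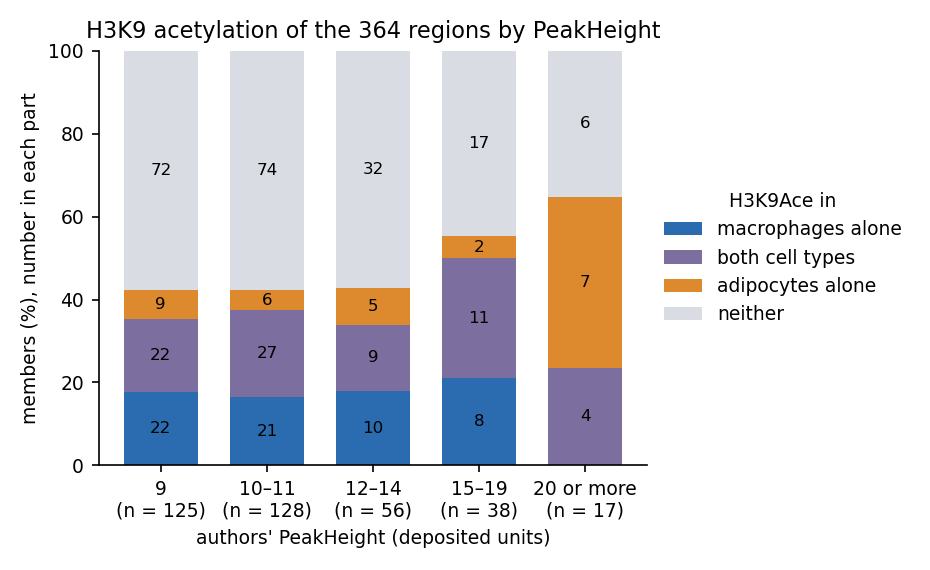
Share of the 364 regions (y axis, %) in each state of H3K9 acetylation, by deposited PeakHeight (x axis), with the number of regions printed in each part of a bar. The parts for adipocytes alone hold 9, 6, 5, 2 and 7 regions from the lowest to the highest class, and no region of the highest class is acetylated in macrophages alone.

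The 10 members with the greatest height show this mix one by one. Of them, 8 were acetylated in adipocytes, 3 in macrophages and 2 in neither, and 5 overlapped the combined adipocyte PPARγ list. At heights of 20 or more that list overlapped 8 of 17 members, 47.1% (26.2 to 69.0). It overlapped 100 of the 293 other macrophage-only regions of such height, 34.1% (28.9 to 39.7). The highest lay in mm8 on chromosome 13 at 58135781 to 58136118, with a height of 43 and a fold of 15.18. It overlapped adipocyte H3K9Ace and the combined adipocyte list, stood 132 bp from the nearest macrophage H3K9Ace region and 2391 bp from PU.1. Second in height was a region on chromosome 5, 114963507 to 114963888, which had a height of 35, a fold of 14.51 and H3K9Ace in both cell types.

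A region on chromosome 15 at 100515146 to 100515585 (height 34) and another on chromosome 16 at 45930213 to 45930620 (height 26) were acetylated in both cell types and overlapped the combined adipocyte list. Adipocytes alone were acetylated on chromosome 13 at 105161415 to 105161868 (height 32) and chromosome 1 at 58741913 to 58742319 (height 29), both in the combined list as well. Adipocyte H3K9Ace without the combined list was found on chromosome 6 at 115438424 to 115439009 (height 27) and at 115455503 to 115455958 (height 26). No acetylation was called on chromosome 5 at 82111671 to 82112004 (height 30), where the nearest macrophage H3K9Ace region was 1512971 bp away. The same held on chromosome 6 at 125842387 to 125842871 (height 24), which lay 191006 bp from PU.1 and 303729 bp from C/EBPβ.

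The word macrophage-only holds against the final adipocyte list, which is the short one. An adipocyte list that its name describes as 3 combined datasets, with 12430 regions of a median width of 899 bp, overlapped 52 of the 364 regions, 14.3% (11.1 to 18.3). It overlapped 28.5% of all autosomal macrophage PPARγ regions, which includes every shared region. In the other macrophage-only classes it overlapped 15.5% with PU.1 alone (52 of 335), 21% with both factors (18.3 to 23.9) and 29.9% with C/EBPβ alone (24.2 to 36.4). This list profiles the target and cell type of a list used in the choice, so these shares are a description.

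Members within the combined adipocyte list were higher and more often acetylated than the others. Their median height was 14, in a range of 9 to 43, against 10 and a range of 9 to 35 in the 312 outside it. Adipocyte H3K9Ace lay at 31 of 52, 59.6% (46.1 to 71.8), against 71 of 312, 22.8% (18.5 to 27.7), an odds ratio of 5.01 (interval 2.59 to 9.75). Macrophage H3K9Ace lay at 29 of 52, 55.8% (42.3 to 68.4), against 105 of 312, 33.7% (28.6 to 39.1), an odds ratio of 2.49 (interval 1.31 to 4.73). Members in the list were also wider, with a median of 309.5 bp against 211 bp, and the part of width in these differences was not tested. The split was chosen after seeing the data and uses the same combined list, so these values too are a description. Of the 52, 24 were acetylated in both cell types and 16 in neither, while of the 312 the counts were 49 and 185.

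Lacking overlap with PU.1 and C/EBPβ did not mean lying far from them. The nearest region of either factor was 1.73 kb away in the median, edge to edge, with 25% of members within 0.402 kb and 25% beyond 8.44 kb. A factor region lay within 1 kb of 145 members and within 10 kb of 279. The factor lists are dense, with 46356 PU.1 and 24421 C/EBPβ regions, and how often other positions lie this near is not given here. PU.1 was within 1 kb of 121 and C/EBPβ of 90, with medians of 2.43 kb and 4.78 kb. The share with PU.1 within 1 kb but no overlap, 33.2% (28.6 to 38.2), was near that of regions with C/EBPβ alone, 36.9% (79 of 214, 30.7 to 43.6). At the boundary of the choice, the nearest member, on chromosome 10 at 44323942 to 44324187, ended 1 bp from a PU.1 region. The next were 5, 6, 7 and 12 bp from a factor region. On the other side, macrophage-only regions just left out overlapped PU.1 by 2 bp (chromosome 7 at 100414181 to 100414359) and 4 bp, C/EBPβ by 11 bp, and PU.1 by 14 and 15 bp.

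Macrophage acetylation was highest close to the factors. It lay at 80 of the 145 members within 1 kb of PU.1 or C/EBPβ, 55.2% (47.0 to 63.0), at 40 of 134 from 1 to 10 kb, 29.9% (22.8 to 38.1), at 12 of 64 from 10 to 100 kb, 18.8%, and at 2 of the 21 beyond 100 kb, 9.52% (2.65 to 28.9). Adipocyte H3K9Ace lay at 34.5%, 26.9%, 23.4% and 4.76% of the same classes. The share without any acetylation was 55 of 145 in the nearest class and 19 of 21 in the farthest, against 55.2% of all 364 members. Median height was 10, 10, 11 and 11 and median width 244, 208, 211 and 189 bp over these classes, and the part of width was not tested. The gap was part of the choice of regions, so no test was made across these classes.

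**Figure D4:**
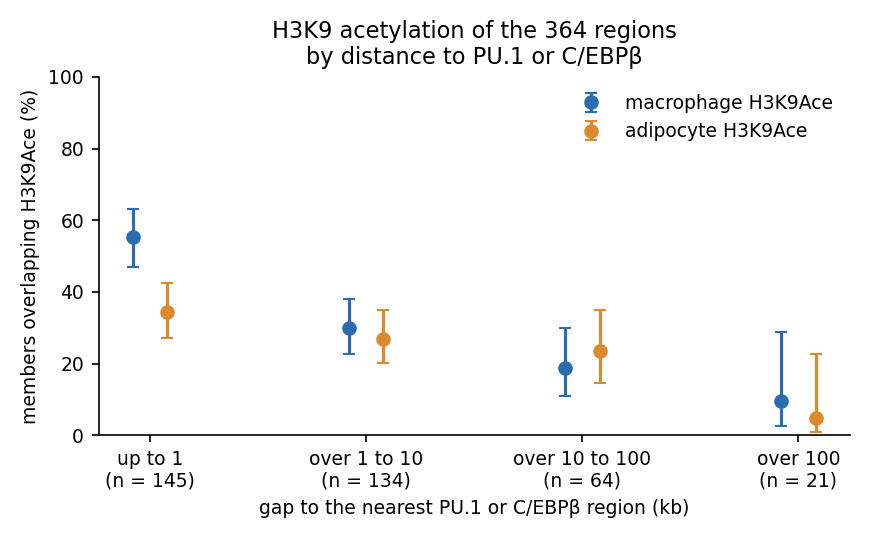
Share of the 364 regions that overlap H3K9Ace (y axis, %) in macrophages and in adipocytes, by the gap to the nearest PU.1 or C/EBPβ region (x axis, kb); points are shares and bars 95% Wilson intervals. Macrophage shares are 55.2, 29.9, 18.8 and 9.52% and adipocyte shares 34.5, 26.9, 23.4 and 4.76% from the nearest to the farthest class.

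Unacetylated members lay within 1 kb of acetylated chromatin about as often as other unacetylated PPARγ regions. Of the 230 without macrophage H3K9Ace, 58 had an acetylated macrophage region within 1 kb, 25.2%, against 153 of 564 such regions among the others, 27.1% (23.6 to 30.9). For adipocyte H3K9Ace the counts were 31 of 262, 11.8% (8.46 to 16.3), against 100 of 968, 10.3% (8.57 to 12.4). The median gap to macrophage H3K9Ace was larger at the unacetylated members, 5.48 kb against 3.32 kb at the others. To adipocyte H3K9Ace it was 16.4 kb against 15.9 kb, and neither difference was tested. Counting overlap or a gap of up to 1000 bp, macrophage acetylation lay at 192 of the 364 members, 52.7% (47.6 to 57.8), against 73.7% of the other 1560 regions (71.4 to 75.8) and 69.7% of all 1924. Adipocyte acetylation counted in this way lay at 133 members, 36.5% (31.8 to 41.6), against 44.4% of the others (41.9 to 46.8) and 42.9% of all.

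As in the other classes, the acetylated regions that members met were wider in the median than H3K9Ace regions in general. A wide region is more likely to be met by overlap at any position, so this difference is no trait of the members. In macrophages they had a median width of 1.93 kb, against 1.73 to 1.85 kb in the other macrophage-only classes and 1.05 kb over all autosomal H3K9Ace regions. In adipocytes the median was 3.77 kb, against 2.65 to 3.45 kb, and 1.00 kb over all. The centre of the PPARγ region lay within 500 bp of an edge of the macrophage region in 63 of 134 cases, 47.0%, against 49.2 to 60.7% in the other macrophage-only classes and 46.1% in the shared regions. For the adipocyte region it did so in 38 of 102 cases, 37.3%, against 43.4 to 46.5% and 24.9%. None of these shares was tested.

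Most members had no near neighbour in the list, as was so for most regions of every class. Another final macrophage PPARγ region lay within 10 kb of 67, 18.4% (14.8 to 22.7), where 23.2% of all autosomal regions had one. The share was 16.4% with PU.1 alone (12.8 to 20.8), 21.5% with C/EBPβ alone (16.5 to 27.5) and 29.5% with both factors (26.4 to 32.7). The median distance to the nearest other region was 112 kb, against 70.6 kb for the other 1560. Where a member had a neighbour within 10 kb, the nearest one carried both factors in 37 of 67 cases, 55.2%, and was itself a member in 9, 13.4%. These shares sat near those of the 379 other regions with such a neighbour, 53.6% and 14.5%. Only 5 groups of regions joined by gaps of at most 10 kb held more than 1 member, with 11 members in all. These distances come from the library that supplied the list, so no test was made.

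The members' share of the macrophage list varied by chromosome. It was highest on chromosome 13, with 24 of 85 regions, 28.2% (19.8 to 38.6), chromosome 16 with 21 of 79, 26.6% (18.1 to 37.2), and chromosome 3 with 24 of 94, 25.5% (17.8 to 35.2). The lowest share was on chromosome 4, 10 of 114, 8.77% (4.83 to 15.4). The overall 18.9% lies within the interval of every autosome but chromosomes 13 and 4.

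The densest group of members lay on chromosome 6, where 5 of them fell within 50.6 kb, from 115405407 to 115455958. No other 100-kb stretch held as many. The members started at 115405407 (height 22, fold 10.61), 115407025 (height 13, fold 7.31), 115416520 (height 12, fold 7.12), 115438424 (height 27, fold 11.15) and 115455503 (height 26, fold 12.96). The first 3 of them formed the only group of 3 members joined by gaps of at most 10 kb. All 5 overlapped adipocyte H3K9Ace, and none overlapped macrophage H3K9Ace or the combined adipocyte list.

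Adipocyte H3K9Ace covered 80.4% of this stretch in 15 regions, and macrophage H3K9Ace 7.22% in 3. A 6th macrophage PPARγ region at 115428630 to 115428975 (height 20, fold 10.10) carried PU.1, C/EBPβ, the combined adipocyte list and acetylation in both cell types. Following the stretch by 20.2 kb is a masked interval, 115476183 to 115477852, with the same coordinates as a region of the longer macrophage list that had a height of 59 and a fold of 27.38. It was left out of the final list and overlapped no PU.1, C/EBPβ or H3K9Ace region. The 5 neighbours make up 5 of the 29 members acetylated in adipocytes alone. Without them the macrophage excess over the remaining 359 regions was 10.3 percentage points (exact McNemar p = 7.40e-05). Since all 5 counted against that excess, a larger excess and a lower p were fixed in advance and lend it no support.

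**Figure D5:**
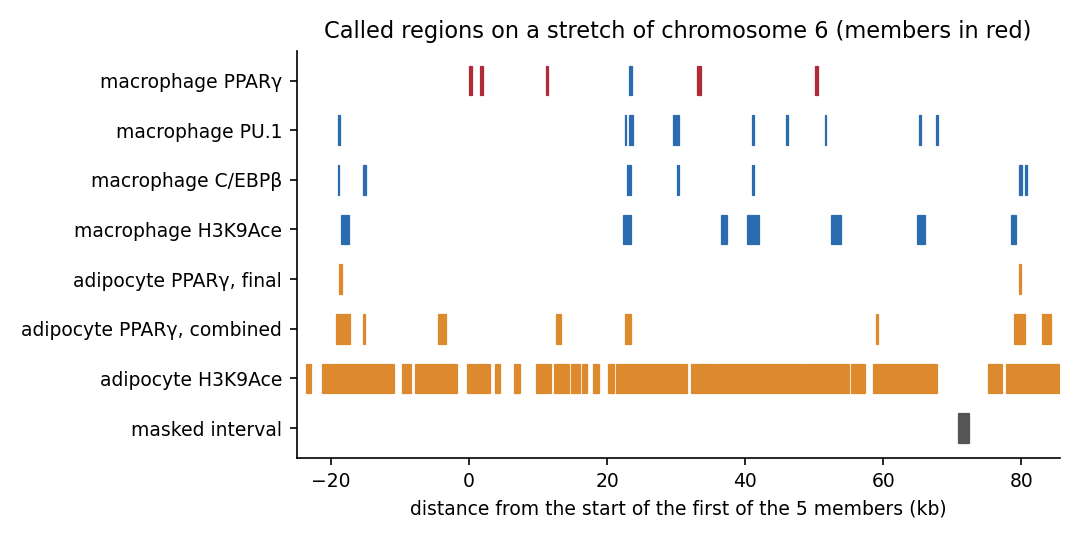
Called regions of each list along a stretch of chromosome 6 (build mm8), by distance from the start of the first of the 5 members (x axis, kb), with a row for each list; bars have a thin outline so that narrow regions stay visible. The 5 members, in red, all lie within adipocyte H3K9Ace, which covers 80.4% of the 50.6 kb from the first to the last, and none meets macrophage H3K9Ace.

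The other 4 groups with more than 1 member held 2 each, with heights of 9 to 15, and none of these 8 members overlapped the combined adipocyte list. The 4 members on chromosome 8, at 35130344 to 35135497 and 91171009 to 91171574, overlapped H3K9Ace of neither cell type. On chromosome 13, the member at 52614541 had macrophage H3K9Ace and the one at 52618325 had none. On chromosome 19, the members at 32319321 and 32321084 both had macrophage H3K9Ace, and the second had adipocyte H3K9Ace as well. The 5 members with the lowest folds, up to 5.01, all had a height of 9. They lay on chromosomes 2, 3 and 7, and 2 of them overlapped macrophage H3K9Ace.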

How the data were processed

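ChIP-seq lists of 6 libraries, 1 per group, were used. Per the labels' protocols, the authors mapped 36-bp reads to mm8 with ELAND, kept unique best matches with up to 2 mismatches, and joined 2 runs for macrophage PPARγ. Settings of the peak caller: not given in the sources used here. Per the file headers, the PPARγ lists carry a fold ratio, a peak height (signal) and a false discovery rate, read as a percent because the longer list exceeds 1; it is 0.24% at every member. Other deposited lists hold positions alone. The 20 repeated adipocyte H3K9Ace rows were dropped.

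Overlap meant at least 1 bp. Groups follow the titles, which the antibody labels match. Wilson, Fisher, McNemar and Benjamini-Hochberg calculations used scipy 1.17.1 in Python 3.11.15, and exact conditional odds ratios within strata R 4.3.3; overlap and odds ratio functions were tested on simulated data. Intervals cover counting error only. Members, lists and tests were chosen with earlier results of these data known. Regions named are the 10 members of greatest height, the 5 of lowest fold, 5 on either side of the overlap boundary and 3 groups by number of members, ties by chromosome and start. Since 4 groups tied at 2 members, the 2 tied groups outside that rule, on chromosomes 13 and 19, are described too, a choice made after their values were seen. The chromosome 6 stretch was singled out, and strata of height and gap set, after values were seen. Sequences and genes are not given, since no mm8 genome or annotation was used here.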

Additional observations from a re-analysis of the deposited data

Results flagged for a closer look

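The contrast between macrophage and adipocyte H3K9Ace was set side by side over the classes with a test chosen after seeing the data, Fisher's exact test (2-sided) on regions acetylated in 1 cell type alone, adjusted over 3 tests. The members had 61 regions acetylated only in macrophages and 29 only in adipocytes, a macrophage excess of 8.79 percentage points. Regions with both factors had 338 and 35, an excess of 38 points, and the ratio of odds, members over these, was 0.218 (0.120 to 0.40, exact adjusted p = 7.37e-07). Regions with PU.1 alone had 95 and 20, an excess of 22.4 points, with a ratio of 0.443 (0.217 to 0.895, exact adjusted p = 0.0203). Regions with C/EBPβ alone had 60 and 11, an excess of 22.9 points, with a ratio of 0.386 (0.160 to 0.887, exact adjusted p = 0.0203). These ratios were not taken within quartiles of width or height. The members' median width was 220 bp, against 359 bp with both factors, 318 bp with PU.1 alone and 302 bp with C/EBPβ alone. Without the 5 neighbouring members on chromosome 6, 61 and 24 regions remained, and the ratio was 0.263 against both factors (exact adjusted p = 5.41e-05). It then missed the threshold against PU.1 alone, 0.535, and against C/EBPβ alone, 0.466 (exact adjusted p = 0.0842 for each). All 5 were acetylated in adipocytes alone, so leaving them out could only raise each ratio.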

How the results depend on the processing

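Of 123 values under alternatives, 91 kept their direction and their side of the threshold, or stayed within the interval of the value as reported. The number of members has no interval or test, and was counted as kept within a factor of 1.5. Each group is 1 library, so none could be left out and no paired analysis was possible. The cause of the changes below was not tested. The number of members was 219 with no factor within 1000 bp, 11029 with the longer macrophage list and 113 in the upper 50% of the final list by fold. Macrophage H3K9Ace lay at 24.7% with no factor within 1000 bp, 27.8% with the longer list and 52.7% when counted within 1000 bp, and adipocyte H3K9Ace at 22.8% with the combined adipocyte list in the choice and 36.5% within 1000 bp. The combined list overlapped 23.9% in the upper 50% by fold and 3.44% with the longer list. Another region within 10 kb was found for 11.9% with no factor within 1000 bp and 49.1% with the longer list, where neighbours were counted in that list. Within 5 kb the share was 13.7% and within 25 kb 28.3%. Median height was 13 in the upper 50% by fold and 7.00 with the longer list.

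The macrophage minus adipocyte excess lost its call with no factor within 1000 bp, 0.913 points, and in the upper 50% by fold, 5.31 points (exact McNemar p = 0.362). In the upper 50% by fold, with fewer regions, the odds ratios of macrophage H3K9Ace against PU.1 alone, 0.599, and C/EBPβ alone, 0.571, also missed the threshold, as did 0.720 against PU.1 alone within quartiles of width. The odds ratio against both factors passed in every alternative, from 0.141 to 0.349. Adipocyte odds ratios passed in 4 cases, 3 with the longer list and 1 with no factor within 1000 bp. Against both factors they were 1.14 with the combined list, 1.05 within quartiles of width, 0.636 with no factor within 1000 bp and 0.726 with the longer list. Against PU.1 alone they were 0.847 with no factor within 1000 bp, 0.655 with the longer list, 0.920 with sex chromosomes and 0.963 without the 5 neighbours on chromosome 6, an alternative added after seeing the data. Since all 5 had adipocyte H3K9Ace, leaving them out could only lower this odds ratio. Against C/EBPβ alone the adipocyte odds ratios were 1.13 with the combined list, 1.07 in the upper 50% by fold and 0.475 with the longer list.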

Other observations

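The sex chromosomes were outside the choice of regions. On chromosome X, 16 of 23 final macrophage PPARγ regions overlapped none of the 3 lists, and on chromosome Y 14 of 14. On the autosomes 18.9% of 1924 did so. Whether the 3 lists hold any region on chromosome Y is not given here, and without one its count would be fixed. In the longer macrophage list, whose regions go down to a height of 5 and a fold of 2.15, 11029 of 18128 autosomal regions overlapped none of them, 60.8%.

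Of the 21 members over 100 kb from both factors, 19 had no H3K9Ace call in either cell type. That state was found at 55.2% of all 364 members and 34.4% of all 1924 autosomal regions. The combined adipocyte list overlapped 2 of the 21, 9.52% (2.65 to 28.9), an interval that holds the 14.3% of all members. It overlapped 28.5% of all 1924. The median width of the 21 was 189 bp. They include the region on chromosome 6 at 125842387 to 125842871, with a height of 24, and the member farthest from a factor, on chromosome 17 at 93071544 to 93071705, which had a height of 9 and acetylation in both cell types.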
